A study of Sus scrofa with 2 samples.

Results

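The miR-181 family was followed through small RNA libraries of the glycolytic muscle *longissimus dorsi* (LDM) and the oxidative muscle *psoas major* (PMM) of female Landrace pigs aged 210 days, with no treatment in either group. Per the study, equal amounts of total RNA of its 3 pigs, kept on the same diet, went into 1 pool per muscle and each pool gave 1 library, so these data hold no spread from pig to pig. The members were the entries of the deposited miRNA table named miR-181a, miR-181b, miR-181c or miR-181d, in any arm and copy and in any letter case, and those named miR-18PN. This gave 9 of the 668 entries, of which 281 carried pig (ssc) names. LDM held 8750049 normalised reads, which correspond to 7603850 reads at 1.15 units per read, and PMM held 8556672. As a check of the labels, 6 of 6 listed muscle fibre miRNAs were found (among them miR-1-3p and miR-133a-3p) and took up 68.6% of the LDM library and 51.2% of the PMM library, although the extraction text of the labels speaks of fat tissue.

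A miRNA is cut from a hairpin whose arms (5p and 3p) pair with each other. An arm that is loaded into an Argonaute protein recognises target mRNAs mainly through its seed, the bases from position 2 to position 8, and the other arm, the passenger strand, is usually degraded. The miR-181 family is conserved in vertebrates and its 5p arms are the usual guides. In mouse myoblasts miR-181 increases during differentiation and represses the homeobox gene *Hoxa11*, in mouse T cells miR-181a tunes the response to antigen, and in rat heart miR-181c acts on a cytochrome c oxidase transcript inside mitochondria.

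The RefSeq gene table of assembly Sscrofa11.1 lists 6 loci of the family on 3 chromosomes. MIR181A-1 neighbours MIR181B-1 within a gene model without a gene symbol, and the nearest named protein-coding gene is PTPRC, which encodes the leukocyte phosphatase CD45. MIR181A-2 neighbours MIR181B-2 within NR6A1, an orphan nuclear receptor gene. MIR181C neighbours MIR181D, and the next miRNA loci from that pair are MIR23A, MIR27A and MIR24-1. That assembly is not the authors' build (Sscrofa10.2), so no coordinates are given. No entry of the table was named miR-181b and 0 of 668 names held the characters 1b. The 3 miR-18PN entries also carry copies numbered 1 and 2, and the letters PN begin the names of 100 other entries. The miR-18PN entries may therefore be those of miR-181b under an altered name, but none of the sources used here settles this, and the name is kept as deposited.

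The consensus sequences of the table are shown because the members differ by very few bases and because the 3p arms, unlike the 5p arms, tell the copies of miR-181a apart. They run from 5′ to 3′ as deposited, with the seed in capitals.
ssc-miR-181a-1-5p,ssc-miR-181a-2-5p (miR-181a-5p): aACATTCAacgctgtcggtgagt
ssc-miR-18PN-1-5p,ssc-miR-18PN-2-5p (miR-18PN-5p): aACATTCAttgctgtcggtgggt
ssc-miR-181c-5p: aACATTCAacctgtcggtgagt
ssc-miR-181d-5p: aACATTCAttgttgtcggtgggt
ssc-miR-181a-1-3p: aCCATCGAccgttgattgtacc
ssc-mir-181a-2-3p: aCCACCGAccgttgactgtacc
ssc-miR-181c-3p: aCCATCGAccgttgagtggacc

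The 4 5p entries shared 1 seed, which no other entry of the table had. Positions are counted from 1 at the 5′ end. From miR-181a-5p, miR-18PN-5p differed by A9T, C10T and A21G, and miR-181c-5p lacked the G at position 11. From miR-18PN-5p, miR-181d-5p differed by C12T alone. The 5p arm of miR-181a was a joint entry for both copies, whereas the 3p arms had an entry each. From miR-181a-2-3p, miR-181a-1-3p differed by C5T and C16T, and the first of these lies in the seed, so that miR-181a-1-3p shared its seed with miR-181c-3p and not with miR-181a-2-3p. Outside the family the closest entry of the table to any member was 6 edits away. When folded together with RNAcofold, miR-181a-5p formed 16 base pairs with either 3p arm, with an energy of -20.2 kcal/mol for copy 1 and -22.1 kcal/mol for copy 2.

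The comparison of LDM with PMM asked how much of the family each muscle holds and which members make it up. All members together had 30866 normalised reads in LDM and 23123 in PMM, a ratio of PMM to LDM of 0.749 (95% interval 0.736 to 0.762). All intervals given are 95% intervals of the counting error of these reads only. Since each muscle was read in a single library, the differences could be neither tested nor checked in replicates. The family held 0.353% of the LDM reads (0.349 to 0.357) and 0.270% of the PMM reads (0.267 to 0.274). The 4 5p entries, which carry the seed of the usual guides, had 25665 normalised reads in LDM and 16391 in PMM, 1.57-fold higher in LDM (1.53 to 1.60). The 5 3p entries went the other way as deposited, from 5201 in LDM to 6732 in PMM, 1.29-fold higher in PMM (1.25 to 1.34), but the ratio was 0.934 after centring on the median log2 ratio and 0.996 with totals that leave out the 10 highest entries. Within a library, which no scaling can alter, there were 4.93 5p reads for each 3p read in LDM and 2.43 in PMM.

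miR-181a-5p, the main guide of the family, had 22978 normalised reads in LDM and 11961 in PMM. It was 1.92-fold higher in LDM (1.88 to 1.97), where it ranked 16 among all entries against 32 in PMM. Its share of the family reads was 74.4% in LDM (73.9 to 75.0) and 51.7% in PMM (51.1 to 52.4). A larger part of the family was thus held by members other than the leading one in PMM.

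miR-181a-1-3p, the 3p arm of copy 1, had 1478 normalised reads in LDM and 411 in PMM, 3.60-fold higher in LDM (3.21 to 4.03). miR-181a-2-3p, the 3p arm of copy 2, had 3669 in LDM and 6244 in PMM, 1.70-fold higher in PMM (1.63 to 1.78). The 3p arms of the copies therefore lay on opposite sides as deposited. miR-181a-2-3p stayed higher in PMM after centring (1.23-fold), when scaled by the trimmed mean (1.40-fold) and when the 10 highest entries were left out of the totals (1.31-fold).

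miR-18PN-5p, whose sequence differs from that of miR-181d-5p at 1 base, had 2016 normalised reads in LDM and 2994 in PMM, 1.49-fold higher in PMM (1.40 to 1.58). After centring this ratio was 1.07. miR-181d-5p had 255 normalised reads in LDM and 1006 in PMM, 3.94-fold higher in PMM (3.40 to 4.57). miR-181c-5p had 415 and 430, a ratio of 1.04 whose interval (0.898 to 1.19) held 1. The miR-181d and miR-181c entries thus changed places, with miR-181c-5p the higher of the pair in LDM and miR-181d-5p the higher in PMM. The methylation data of the study were not analysed here.

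The remaining members were low. miR-181c-3p had 46.0 normalised reads in LDM (40 reads) and 73 in PMM, a ratio of 1.59 (1.06 to 2.39). miR-18PN-1-3p was listed with 8 reads in LDM and at 0 in PMM, which is at least 3.07-fold higher in LDM when 3 reads stand in for the 0 (counting interval from 0.737). miR-18PN-2-3p was listed at 0 in LDM and had 4 reads in PMM, which by the same floor is at least 1.16-fold higher in PMM (0.196 to 7.91). Both intervals began below 1, so the depth shows no direction for either entry.

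**Figure D1:**
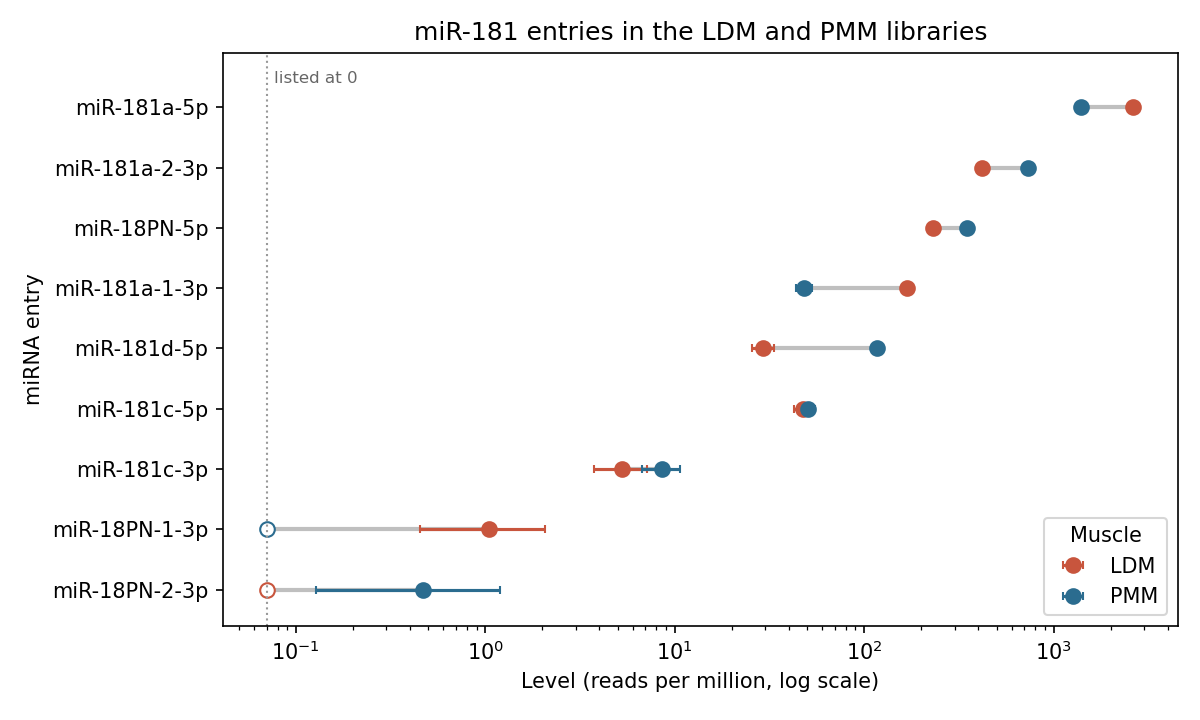
Level of each of the 9 members in RPM (normalised reads scaled to a library of 1000000, log scale) in LDM and PMM, with 95% Clopper-Pearson intervals of counting error. Open circles on the dotted line are entries listed at 0. miR-181a-5p and miR-181a-1-3p lie higher in LDM, miR-181a-2-3p, miR-18PN-5p and miR-181d-5p higher in PMM, and the intervals of miR-181c-5p overlap; under the other scalings the points of PMM move left by a common factor, and miR-181c-5p then lies lower in PMM.

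In order of level, LDM ran from miR-181a-5p through miR-181a-2-3p, miR-18PN-5p, miR-181a-1-3p, miR-181c-5p and miR-181d-5p to miR-181c-3p, and neighbours in this order had intervals that did not overlap. In PMM the first 3 kept their places, and miR-181d-5p came next at 1006. Then followed miR-181c-5p at 430 (390 to 473) and miR-181a-1-3p at 411 (372 to 453), and their intervals overlapped. miR-181a-1-3p was thus the fourth member of LDM and, with miR-181c-5p, near the lower end of the family in PMM.

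As shares of the family, miR-181a-2-3p went from 11.9% in LDM (11.5 to 12.3) to 27.0% in PMM (26.4 to 27.6), and miR-18PN-5p from 6.53% (6.24 to 6.83) to 12.9% (12.5 to 13.4). miR-181d-5p went from 0.828% (0.723 to 0.943) to 4.35% (4.09 to 4.62). miR-181a-1-3p went from 4.79% (4.53 to 5.05) to 1.78% (1.61 to 1.96). These shares are read within each library, so that a factor common to all PMM values leaves them as they are. All 3p entries together made up 16.9% of the family in LDM (16.4 to 17.3) and 29.1% in PMM (28.5 to 29.7). Among 5p reads alone, miR-181a-5p held 89.5% in LDM (89.1 to 89.9) and 73.0% in PMM (72.3 to 73.7).

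**Figure D2:**
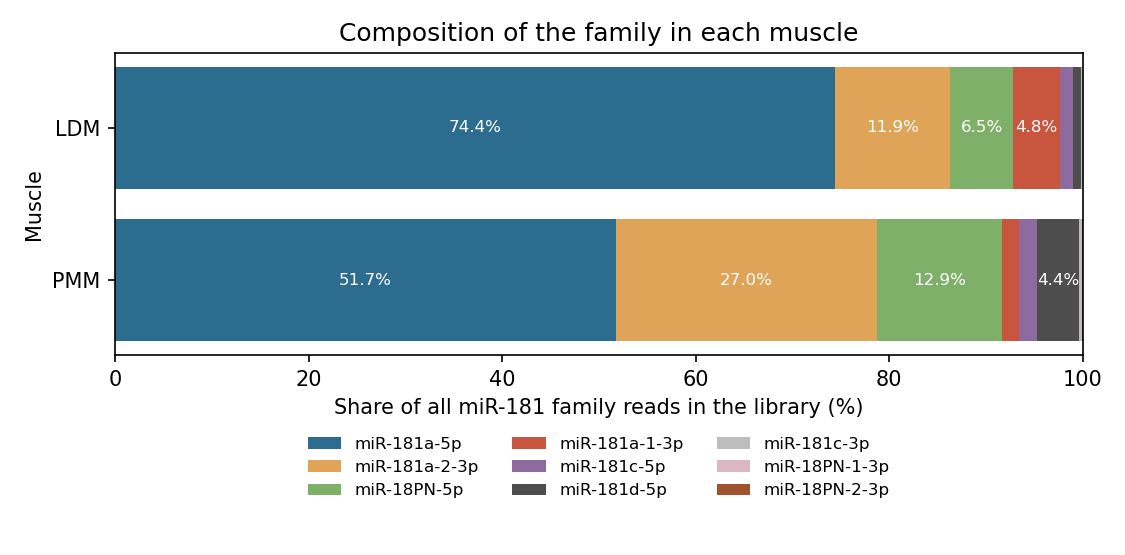
Share of all family reads (%) held by each of the 9 entries in LDM (upper bar) and PMM (lower bar). miR-181a-5p takes 74.4% of the upper bar and 51.7% of the lower one, while miR-181a-2-3p grows from 11.9% to 27.0%.

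The 3p arms of the miR-181a copies were then compared with each other inside each library. For each read of miR-181a-1-3p there were 2.48 reads of miR-181a-2-3p in LDM (2.33 to 2.65) and 15.2 in PMM (13.7 to 16.8). The ratio of these 3p arms thus differed 6.12-fold between the libraries (5.43 to 6.91). The output of each copy as a whole was not measured, since the 5p entry joins both copies. The other miRNAs with separate entries for the same arm of numbered copies were few. The 3p arms of miR-30c-1 and miR-30c-2 had 28 and 375 reads in LDM and 41 and 1083 in PMM, and their ratio differed 1.97-fold (1.16 to 3.32). For the 5p arms of miR-24-1 and miR-24-2 the ratio differed 1.12-fold (0.479 to 2.78), and for those of miR-365-1 and miR-365-2 1.30-fold (0.319 to 6.24), both with intervals that held 1. Each entry for the copies of miR-103 and miR-128 had under 10 reads. The 3p arms of the miR-181a copies had by far the most reads among these pairs, so that the others were measured less closely.

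The arms of miR-181a were compared in the same way. miR-181a-5p had 4.47 reads for each read of the 3p entries together in LDM (4.32 to 4.61) and 1.80 in PMM (1.74 to 1.85), so that the arm ratio was 2.48-fold higher in LDM (2.38 to 2.60). Set against copy 2 alone, it was 6.26 in LDM (6.03 to 6.50) and 1.92 in PMM (1.86 to 1.98). Set against copy 1 alone, it was 15.6 (14.7 to 16.5) and 29.1 (26.4 to 32.2), in the opposite direction. Since the 5p entry joins both copies, the arm ratio of either copy by itself is not measured. For miR-181c the ratio of 5p to 3p reads was 9.03 in LDM (6.50 to 12.8) and 5.89 in PMM (4.59 to 7.66), a change of 0.653 whose interval ran from 0.421 to just above 1.

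Of all 43 precursors whose arms each had a mean of at least 10 RPM, 10 had an arm ratio at least 2-fold apart between the libraries, or 23.3%. miR-181a-2, with its joint 5p entry, was 1 of these 10, and miR-181a-1 was not. Among the 41 precursors of other miRNAs the median was 1.49-fold. The 4 whose arm ratio was further apart than that of miR-181a with both copies summed were miR-532 (4.39-fold higher in PMM), miR-130b (3.94-fold higher in LDM), miR-136 (3.09-fold higher in LDM) and miR-491 (2.51-fold higher in PMM). The 3p arm of miR-181a-2 was well read beside these, since the lower arm of each of the 4 had at most 345 reads in either library.

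**Figure D3:**
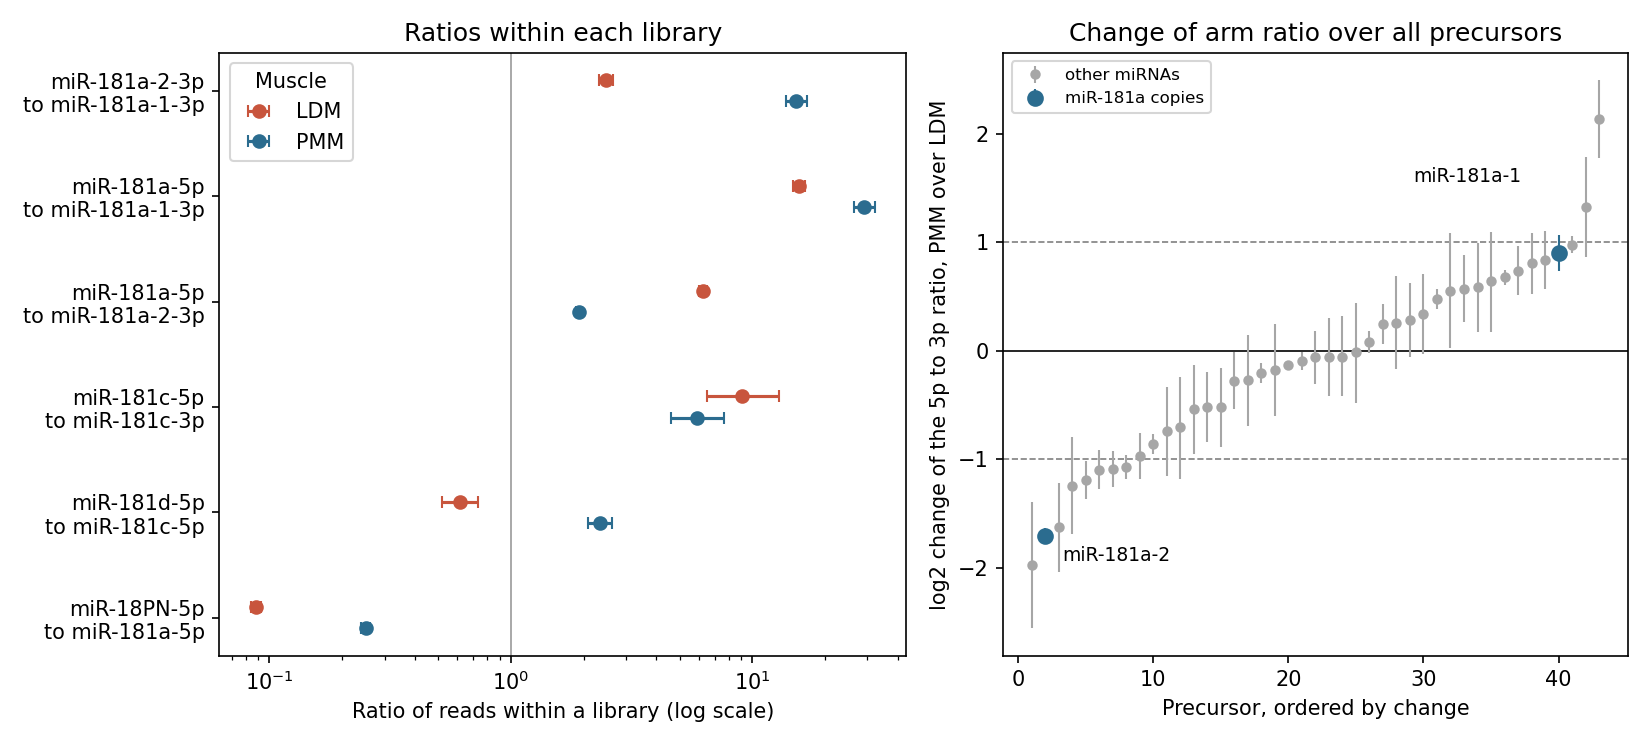
Left, ratios of reads between pairs of members within LDM and within PMM (log scale), with exact 95% intervals of counting error. Right, log2 change of the 5p to 3p ratio from LDM to PMM for 43 precursors in order, with exact 95% intervals and dashed lines at 2-fold. The ratio of miR-181a-2-3p to miR-181a-1-3p moves from 2.48 to 15.2, and miR-181a-2 stands near the lower end of the right panel while miR-181a-1 stands near the upper end.

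Neighbours in a cluster are usually cut from a shared primary transcript, so that their levels can be compared. For each read of miR-181c-5p there were 0.615 reads of miR-181d-5p in LDM (0.518 to 0.729) and 2.34 in PMM (2.09 to 2.63), a 3.80-fold difference (3.09 to 4.68). In log2 ratio of PMM to LDM, with a pseudocount of 1 RPM added to both values, they were 1.89 apart, and of the 15 other pairs found from a list of 22 pairs, which does not cover all clusters, none was further apart (median 0.67). The next was miR-23a with miR-27a at 1.82, where the miR-23a-3p row has values that break the pattern of whole reads, followed by miR-195 with miR-497 at 1.59. The miR-181c and miR-181d reads are few, and with the miR-18PN-5p reads added to miR-181d-5p, its nearest sequence, the difference was 1.70-fold. Against miR-27a-3p of the next cluster (1963 and 3970 normalised reads), the ratio of miR-181d-5p was 1.95-fold higher in PMM (1.66 to 2.29) and that of miR-181c-5p 1.95-fold higher in LDM (1.67 to 2.28). Against miR-24-3p, these were 2.09-fold higher in PMM (1.80 to 2.43) and 1.82-fold higher in LDM (1.58 to 2.10). Against the doubtful miR-23a-3p both were higher in PMM, 6.90-fold for miR-181d-5p (5.94 to 8.04) and 1.81-fold for miR-181c-5p (1.57 to 2.10), so the direction of miR-181c-5p depends on the neighbour chosen. miR-24-3p had a single entry, although the 5p arms of miR-24-1 and miR-24-2 had an entry each (10 and 47 reads in LDM, 28 and 118 in PMM). Its reads may thus join both loci, of which only MIR24-1 is listed beside MIR181C and MIR181D.

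Members of near-identical sequence can share reads, and the extent was not measured. The ratio of miR-181d-5p to miR-18PN-5p, which differ at 1 base, was 0.127 in LDM (0.110 to 0.146) and 0.336 in PMM (0.313 to 0.361), 2.65-fold apart (2.26 to 3.12). The ratio of miR-181c-5p to miR-181a-5p, which differ by 1 missing base, was 0.0181 in LDM (0.0162 to 0.0201) and 0.0360 in PMM (0.0326 to 0.0396). Neither pair kept its ratio from one muscle to the other, which does not measure how far reads were shared. miR-18PN-5p had 0.0877 reads for each read of miR-181a-5p in LDM (0.0835 to 0.0921) and 0.250 in PMM (0.240 to 0.261), a difference of 2.85-fold (2.68 to 3.04).

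Placed among all entries, the members spread widely. Of the 9 members, 6 had a mean of at least 10 RPM, as did 185 entries of the table. Past 2-fold there were 21.6% of these 185 on the PMM side and 6.49% on the LDM side by the log2 ratio with its pseudocount. After centring these shares turned round, to 11.4% on the PMM side and 14.1% on the LDM side. miR-181d-5p was the 1 member past 2-fold in PMM (log2 ratio 1.94, with 8 of the 185 above it) and miR-181a-1-3p the 1 member past 2-fold in LDM (-1.82, with 5 below it). miR-181a-5p lay just inside at -0.94, with 12 below it. The 6 members ran over 3.77 log2 units with a median of 0.31, against a median of 0.35 over the 185. With 6 members, a count of 1 on either side is not set apart from these shares.

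**Figure D4:**
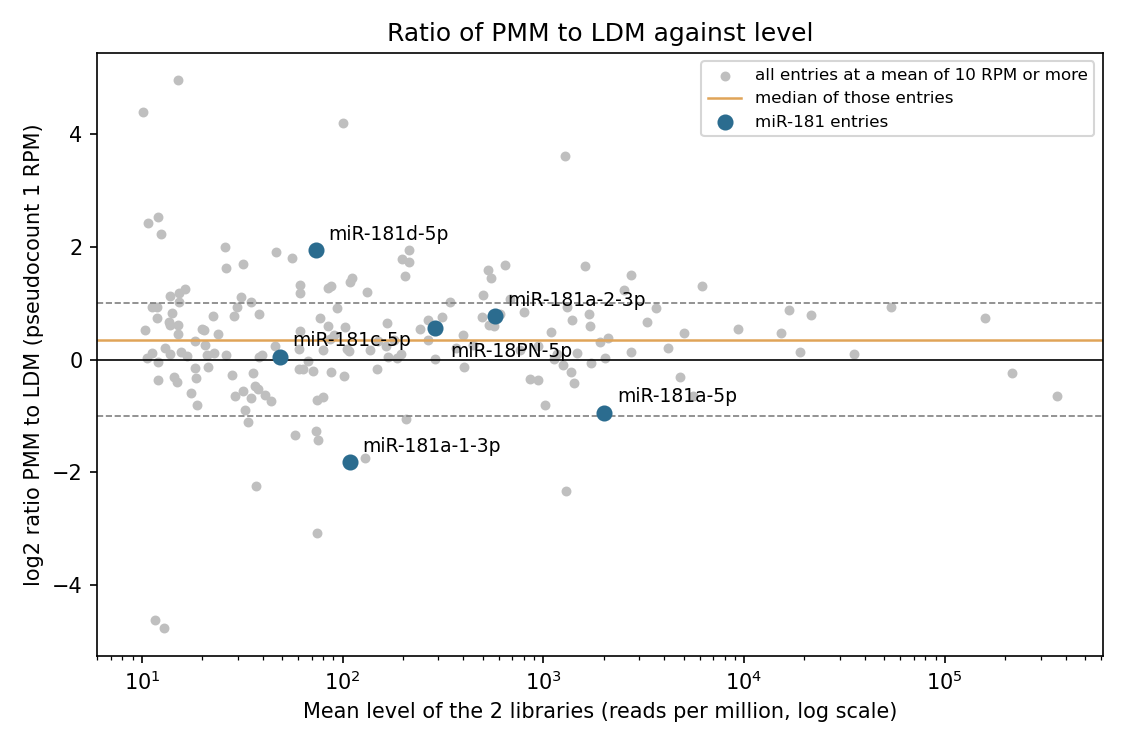
log2 ratio of PMM to LDM (pseudocount 1 RPM) against mean level in RPM (log scale) for the 185 entries at a mean of at least 10 RPM, with the 6 members at that level named. Dashed lines mark 2-fold and the coloured line the median of 0.35. Members stand on both sides of the median, from miR-181a-1-3p at -1.82 to miR-181d-5p at 1.94; miR-181c-5p lies just above 0 as deposited and below it under the other scalings.

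By seed, the entries of the table at a summed mean of at least 100 RPM formed 64 groups. The seed of the miR-181 5p arms was carried by 2933 RPM in LDM and 1916 RPM in PMM, and its log2 ratio of -0.65 was the fifth lowest of the 64, whose median was 0.41. The seed of miR-181a-1-3p and miR-181c-3p stood still lower, at 1524 in LDM and 484 in PMM in normalised reads, 3.15-fold higher in LDM (2.83 to 3.50). The seed of miR-181a-2-3p, which has 1 base changed, stood 1.70-fold higher in PMM.

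Markers of other cells were higher in PMM as deposited, as were some members and most entries. Of the 185 entries at a mean of at least 10 RPM, 124 had a log2 ratio above that of miR-181c-5p (0.05). Leukocyte miRNAs, of which 4 of 6 were found and 4 of 4 were higher in PMM, summed to 117 RPM in LDM and 214 RPM in PMM. Both arms of miR-142 were among those found. The listed miR-150-5p and miR-223-3p, which mark lymphocytes and myeloid cells, were not among the entries. Endothelial miRNAs (2 of 2 found) summed to 1345 and 2734 RPM, and smooth muscle miRNAs (2 of 2) to 17000 and 29221 RPM. Nerve miRNAs, of which 4 of 5 were found and 4 of 4 were higher in PMM, summed to 290 and 319 RPM, and miR-9-3p was at 0 in LDM. The part of these cells in the levels of miR-181a-2-3p, miR-18PN-5p and miR-181d-5p was not tested, and in whole muscle more cells of a type cannot be told apart from more RNA per cell. miR-181a-5p and miR-181a-1-3p, which were higher in LDM, differed in direction from the sums of the leukocyte, endothelial and smooth muscle lists under each of the 4 scalings. The smooth muscle sum was mostly miR-143-3p (15604 RPM in LDM and 27667 RPM in PMM). Its other entry, miR-145-5p, was 1.09-fold higher in PMM as deposited and lower there after centring (log2 ratio -0.35). The nerve list was 1.08-fold higher in PMM as deposited and 0.776 to 0.882 times as high there under the other 3 scalings. Its sum was mostly miR-128-3p (285 RPM in LDM and 293 RPM in PMM), whose log2 ratio was 0.0085 as deposited and -0.46 after centring. The other nerve entries found were low but stayed higher in PMM after centring: miR-9-5p (log2 ratio 1.78), miR-9-3p (0.87) and miR-124a-3p (0.54). The muscle fibre list summed 0.730 times as high in PMM, with 3 of its 6 miRNAs higher there.

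The entries most like the members at a mean of at least 100 RPM were taken by the difference in log2 ratio over the 2 libraries. Nearest to miR-181a-5p were miR-423-5p (0.12 apart), the doubtful miR-23a-3p (0.13) and PN-17-3p (0.30). Nearest to miR-181d-5p were PN-75-5p (0.0064 apart), miR-532-5p (0.16) and miR-28-3p (0.21). With 2 libraries such a likeness holds for any entries of equal ratio.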

How the data were processed

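Small RNA of 10 to 40 nt was sequenced from pooled RNA as 36 bp single-end reads (1 library per muscle). The submitters' processing notes name build Sscrofa10.2, and for the mapper, the miRNA reference and the normalisation method the entry is: not given in the sources used here. Values of the deposited table are normalised reads per entry, a signal computed by the authors. LDM values were whole multiples of 1.15 units and PMM values whole numbers (tolerance 0.001), except those of miR-23a-3p, so values were divided by that step to recover reads, and the lowest listed value was 3 reads. The authors deposited the sum of both libraries as a signal. Their p-value column, a comparison of the libraries deposited by the authors, was not used, and length is another measure of the deposited file (nt).

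Ratios of normalised reads carry no pseudocount and have exact conditional binomial 95% intervals. Ratios of ratios have exact conditional intervals of the odds ratio and shares Clopper-Pearson intervals. Reads had no molecular identifiers. log2 ratios carry a pseudocount of 1 RPM (8.65 units), which understates the change of low entries. Every member was named, with the nearest entries, wider arm pairs and listed clusters and markers. Members and lists were chosen with earlier results of these data known. Alternatives covered scaling, pseudocount, filter, limit and the entries summed. Tools were RNAcofold 2.7.2, scipy 1.17.1, pandas 2.3.3, numpy 2.4.6, matplotlib 3.10.9 and Python 3.11.15, and the scripts were tested on simulated data.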

Additional observations from a re-analysis of the deposited data

How the results depend on the processing

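Depth limits miR-181c-3p and the miR-18PN 3p entries, and the other members rest on at least 222 reads per library. Leaving out miR-181a-2-3p, rescaling the 3p sum, the marker lists and the shares of all entries, and the comparison with miR-23a-3p and miR-24-3p were added after seeing the data. Scaling by the median log2 ratio, by a trimmed mean or by totals less the 10 highest entries multiplied every PMM value by 0.721, 0.820 or 0.770, which lowered the log2 ratios of well-read entries alike and those of entries near the pseudocount less. Of the 7 members above 0 in both libraries, 6 kept the direction of their ratio under these 3 scalings. miR-181c-5p did not (0.747, 0.849 and 0.797), nor did the sum of the 3p entries after centring (0.934) and without the 10 highest (0.996). For miR-181c-3p, counted among the 6, the interval held 1 under each scaling (0.768 to 1.73, 0.873 to 1.96 and 0.819 to 1.84). In the same order the family ratio was 0.540, 0.614 and 0.577, and it was 0.698 without the miR-18PN entries, 0.639 with 5p entries or with all entries of their seed, and 0.621 without miR-181a-2-3p. Members at least 2-fold higher in LDM numbered 2 under each scaling, where 14.1%, 9.73% and 12.4% of all tested entries passed, 2 with no level filter (5.24%), 2 at 1.5-fold (13.5%) and 0 at 4-fold (2.70%). Those higher in PMM numbered 2 at 1.5-fold (40.0% of entries), 0 at 4-fold (4.32%) and 0 at 100 RPM (20.9%). The LDM count with no level filter included miR-18PN-1-3p (8 reads in LDM, 0 in PMM), for which the depth shows no direction. With the miR-18PN-5p reads added to miR-181d-5p or to miR-181c-5p, the change of the ratio between these was 1.70 or 2.80. miR-181a-5p held 89.5% of the 5p reads in LDM and 73.0% in PMM, and of the reads of all members except miR-18PN it held 79.7% and 59.4%. Splitting the miR-181a-5p reads equally over its precursors cannot alter the arm ratio change and tests nothing. No paired analysis was possible because each muscle had 1 library.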
